A study of Bos taurus with 8 samples.

Results

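The miR-200 family of cattle consists of bta-miR-200a, bta-miR-200b, bta-miR-200c, bta-miR-141 and bta-miR-429, written here without the species prefix, and all 5 members were among the 534 miRNAs listed in each library. The members were chosen by name, with their presence in these libraries known, so their levels are a description and carry no test. Small RNA was sequenced from serum and from exosomes, which are small vesicles released by cells, of 4 healthy lactating Holstein cows without any treatment. Each cow gave 1 sera library and 1 exosome library from the same serum, so there were 4 libraries of each sample type. The exosomes were isolated with a precipitation kit from a larger volume of serum, and their RNA was extracted with another kit than that of sera, so sample type and extraction cannot be told apart. The libraries are labelled as blood, and the red cell miRNAs miR-486, miR-451, miR-144, miR-16a, miR-16b and miR-92a took 22.9% to 32.5% of serum reads and 26.9% to 49.1% of exosome reads.

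The miR-200 family is known as the miRNA signature of epithelial cells. Its members repress ZEB1 and ZEB2, the transcription factors that switch off E-cadherin, and so keep epithelial cells attached to each other, and the same factors repress the miR-200 genes in turn. A miRNA finds its targets mainly through the seed, a short stretch near its 5′ end. The family holds 2 seeds, which differ by a base: miR-200a and miR-141 carry one, and miR-200b, miR-200c and miR-429 carry the other. In the RefSeq gene table of cattle (ARS-UCD2.0), MIR429, MIR200A and MIR200B are direct neighbours with no other gene between them, and MIR141 and MIR200C are direct neighbours at another place. Seed and genomic cluster therefore group the members differently.

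The values are RPM, the reads of a miRNA scaled to a fixed total of miRNA reads per library, and each value was a whole number of reads. Depth was 264769 to 590162 reads for sera, against 60682 to 157710 for exosomes. Each read stood for 1.69 to 3.78 RPM in a sera library, and for 6.34 to 16.5 RPM in an exosome library. A count of 0 allowed a level of up to 3 reads, which was 5.08 to 11.3 RPM for sera, against 19.0 to 49.4 RPM for exosomes. PCR copies are not independent molecules, so intervals and limits given here cover counting error only. A mature miRNA is short enough to be read whole, so the RPM of members were set side by side without a correction for length. Whether library preparation and mapping captured each member equally was not tested, so ratios between members are ratios of reads.

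MiR-141 was the most abundant member in all 8 libraries. Serum levels were 2081 RPM for cow 1, 1008 for cow 2, 963 for cow 3 and 1756 for cow 4, from 255 to 783 reads. Exosome levels, in the same order of cows, were 1796, 725, 722 and 1763 RPM, from 74 to 278 reads. The serum mean was 1452 ± 555 RPM and the exosome mean 1252 ± 610 RPM (SD, n = 4), and the sample types overlapped. MiR-141 ranked 67 in sera and 65 in exosomes by mean RPM, among 434 and 353 miRNAs with reads.

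MiR-200a, which shares its seed with miR-141, was second in every library. Its serum levels were 651, 361, 555 and 686 RPM (cows 1 to 4), and its exosome levels 346, 203, 146 and 292 RPM. The lowest sera library (cow 2) was just above the highest exosome library (cow 1), so the sample types did not overlap. The serum mean was 563 ± 146 RPM and that of exosomes 247 ± 89.3 RPM (SD, n = 4). The exosome values rested on 15 to 46 reads, and the 95% Wilson interval of cow 3 ran from 88.7 to 242 RPM.

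MiR-429, a neighbour of miR-200a in the genome, followed miR-200a in every library. Its serum levels were 124, 88.1, 90.6 and 251 RPM (cows 1 to 4), against exosome levels of 98.9, 62.4, 78.1 and 120.5 RPM. The sample types overlapped, and cow 4 had the highest level in both. The exosome values rested on 6 to 19 reads.

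MiR-200b and miR-200c were near the limit of what the depth can show. MiR-200b had 33.7, 18.6, 15.1 and 29.2 RPM in sera (4 to 13 reads) and 16.5, 7.8, 19.5 and 25.4 RPM in exosomes (1 to 4 reads). MiR-200c had 15, 18.6, 30.2 and 22.4 RPM in sera (4 to 11 reads), no reads in the exosomes of cows 1 and 2, and 19.5 and 19.0 RPM in those of cows 3 and 4 (2 and 3 reads). The 0 reads allow up to 49.4 RPM in the exosomes of cow 1 and 23.4 RPM in those of cow 2, which is above the serum level of both cows. At the serum level of each cow, 9.92 reads of miR-200c would be found over the 4 exosome libraries, and 5 were found. MiR-200c was thus present in exosomes, and these few reads do not show whether its level was lower than in sera.

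**Figure D1:**
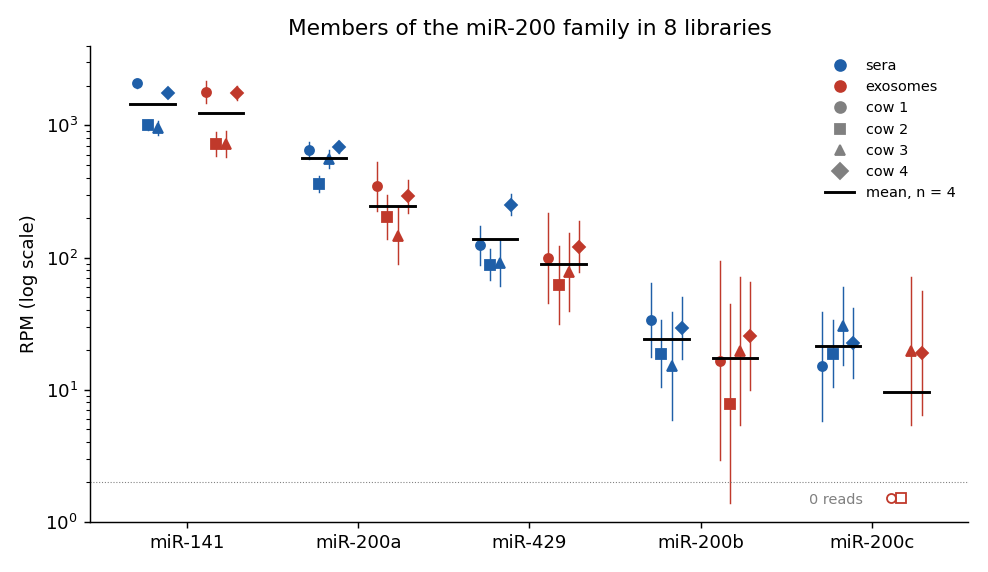
RPM of the 5 members on a log axis in the 4 sera (blue) and 4 exosome (red) libraries, with symbols for cows, 95% Wilson intervals as thin lines and the mean of each sample type as a black bar. The order miR-141, miR-200a, miR-429 held in 8 of 8 libraries, and open symbols at the bottom are the 2 exosome libraries with 0 reads of miR-200c.

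The order miR-141, miR-200a, miR-429, followed by miR-200b and miR-200c, was the same in 8 of 8 libraries. The ratio between neighbours in this order was larger than its spread for the first steps. MiR-141 exceeded miR-200a 2.57-fold ± 0.616 in sera and 4.94-fold ± 1.02 in exosomes, and miR-200a exceeded miR-429 4.56-fold ± 1.47 in sera and 2.76-fold ± 0.750 in exosomes (SD, n = 4). MiR-429 exceeded its seed mate and genomic neighbour miR-200b 5.75-fold ± 2.13 in sera and 5.69-fold ± 1.75 in exosomes (SD, n = 4). MiR-200b and miR-200c did not differ beyond their spread. MiR-200b was higher in 5 libraries, equal in 2 and lower in 1.

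Members of the same genomic cluster thus stood far apart in reads. MiR-141 exceeded miR-200c, its neighbour, 31.9-fold to 139-fold in sera, and by the pooled reads 66.3-fold in sera and 111-fold in exosomes. MiR-200a exceeded its neighbour miR-200b 19.3-fold to 36.8-fold in sera and 7.5-fold to 26.0-fold in exosomes, where miR-200b rested on at most 4 reads. By seed, miR-200a and miR-141 together held 91.6% ± 2.09 of the reads of the family in sera and 92.1% ± 2.86 in exosomes (SD, n = 4). The split between the seeds therefore differed by less than the spread between cows. All members together took 0.22% ± 0.0728 of serum reads and 0.162% ± 0.0720 of exosome reads (SD, n = 4), and these shares overlapped.

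The first comparison asks which miRNAs differ between sera and exosomes. Of the members, miR-200a was higher in sera, and the other 4 were not past the thresholds. The test was limma on log2(RPM + 1) over the 365 miRNAs above 1 RPM in at least 2 cattle of a sample type, and a call needed a Benjamini-Hochberg FDR under 0.05 and a fold change (FC) beyond 1 in either direction on the log2 scale. All 5 members passed this filter, since 1 read is above 1 RPM in each library. Over all miRNAs tested, 3.01% were higher in sera and 1.37% in exosomes.

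MiR-200a had a log2 FC of 1.22 (standard error 0.32, 95% interval 0.53 to 1.92, limma FDR = 0.0337). It was higher in sera in 4 of 4 cows, 1.88-fold in cow 1, 1.78-fold in cow 2, 3.79-fold in cow 3 and 2.35-fold in cow 4. Of all miRNAs tested, 30.7% were higher in sera in every cow. Like miR-200a, 11.8% lay in sera above exosomes without overlap, and 2.47% lay the other way. Among miRNAs as well covered as miR-200a these shares were larger, 51.6% higher in every cow and 21.9% without overlap. The whole profile was also shifted: the median log2 FC was 0.57 over all miRNAs tested and 0.31 over the 128 that had 10 reads or more in each library (the well covered miRNAs), and miR-200a was 0.91 above the latter. With TMM scaling of the recovered reads in edgeR, where the median of the 128 was 0.11, its log2 FC was 1.01 (edgeR FDR = 0.0494, 1.64% of miRNAs called higher in sera and 2.19% in exosomes). With the cow as a replicate block limma called it too, and 7.95% of miRNAs were then called higher in sera. Without the block the call was close to both thresholds. The study's own edgeR test, at the same thresholds, did not have miR-200a among its differentially expressed miRNAs. The limma call was lost in 5 of 8 fits that left out 1 library (cow 1, 3 or 4 of sera, or cow 2 or 3 of exosomes). Over the 8 fits the FDR ran from 0.0139 to 0.122 and the log2 FC from 0.997 to 1.42.

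Several measures moved with the sample type beside miR-200a. Every sera library was deeper than every exosome library, and with all libraries drawn down to 60682 reads the log2 FC of miR-200a was 1.14 (median limma FDR of 20 draws, 0.0768). The red cell miRNAs summed to a larger share in exosomes than in sera in each cow, a sum led by miR-486. The 6 names did not move together. By edgeR the log2 FC was -0.99 for miR-486, -0.84 for miR-92a and -0.22 for miR-451. For miR-16a it was 1.23, for miR-144 0.91 and for miR-16b 0.41. Limma called 2 of the 6 higher in sera and 0 in exosomes. With miR-486 left out of the denominator, the log2 FC of miR-200a was 1.02 (limma FDR = 0.0744). The part of red cell RNA in the difference was otherwise not tested. In RNA released from many tissues, more releasing cells and more RNA per cell cannot be told apart.

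MiR-141, the seed mate of miR-200a, had a log2 FC of 0.27 (95% interval -0.49 to 1.04, limma FDR = 0.694), close to the median of the well covered miRNAs. It was higher in sera in 3 of 4 cows, and with DESeq2 scaling its sign turned (log2 FC of -0.058). The interval leaves room for a level in sera from 0.711-fold to 2.06-fold that in exosomes. MiR-429 had a log2 FC of 0.52 (95% interval -0.46 to 1.49, limma FDR = 0.508) and was higher in sera in 4 of 4 cows. MiR-200b had a log2 FC of 0.50 (95% interval -1.12 to 2.11, limma FDR = 0.748). MiR-200c had the largest fitted change of the 5, a log2 FC of 2.28 (95% interval -0.21 to 4.77, limma FDR = 0.231), which rests on the 2 libraries with 0 reads and depends on the pseudocount. By edgeR on the reads it was 0.73 (FDR = 0.650). For miR-200b and miR-200c the intervals are so wide that differences of several-fold were not detectable.

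**Figure D2:**
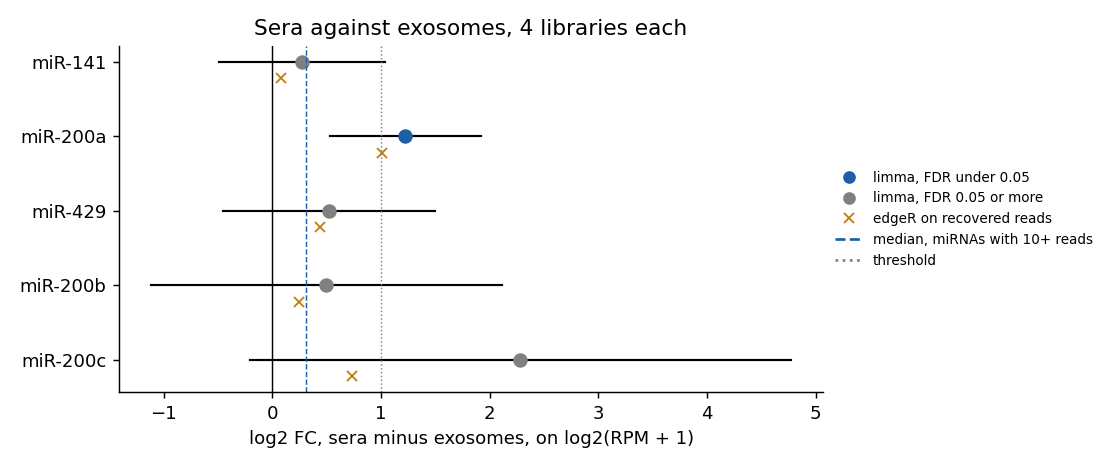
Log2 FC of sera minus exosomes for each member with its 95% interval from limma (circles and lines) and by edgeR on recovered reads (crosses), 4 libraries each; the dashed line is the median of 0.31 over the 128 well covered miRNAs. The interval of miR-200a lies above 0, and those of the other 4 members include 0.

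**Figure D3:**
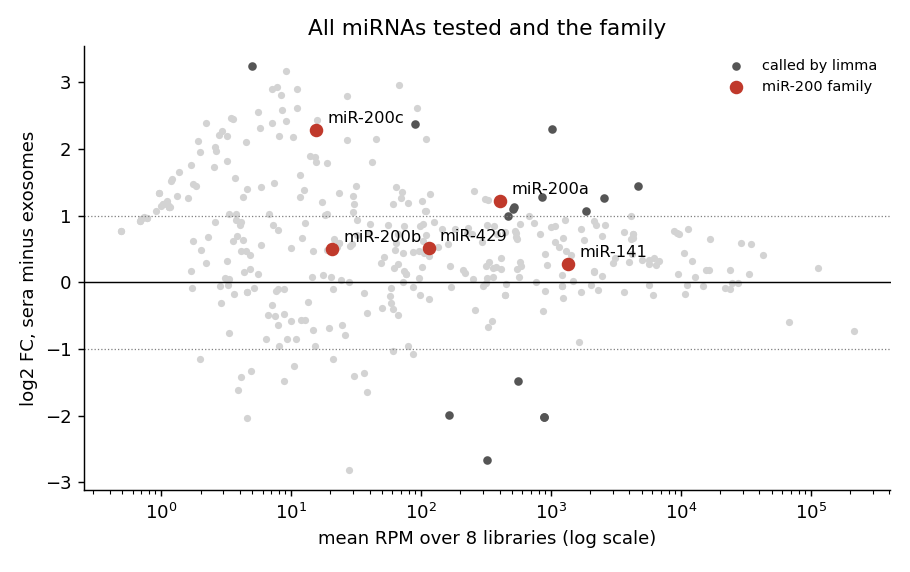
Log2 FC of sera minus exosomes against mean RPM over the 8 libraries (log axis) for the 365 miRNAs tested, with the miRNAs called by limma in dark grey and the 5 members in red. MiR-200a sits just above the dotted line at 1, and miR-200c lies among the miRNAs of few reads, where fitted changes are large without being called.

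The seed mates can also be compared within a library, where their ratio does not depend on the denominator of RPM. MiR-200a made up 23.8%, 26.4%, 36.6% and 28.1% of the miR-200a and miR-141 reads in serum (cows 1 to 4), but 16.2%, 21.8%, 16.9% and 14.2% in the exosomes. The share was lower in exosomes in each cow, and the sample types did not overlap. The ratio of miR-141 to miR-200a was 1.73 to 3.20 in sera and 3.58 to 6.04 in exosomes, a mean difference of -0.95 on the log2 scale for sera minus exosomes. The counting intervals were wide, and those of serum and exosomes overlapped in cows 1 and 2. That of the exosomes of cow 2 ran from 15.4% to 30.1% (95% Wilson) and included the serum share of the same cow. When all libraries were drawn down to equal depth, the ratios did not overlap in 7 of 20 draws. Of all 8128 pairs of well covered miRNAs, 22.1% had ratios that did not overlap between the sample types, so such a separation was common. Both miRNAs are members chosen with results known, and the difference carries no test.

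**Figure D4:**
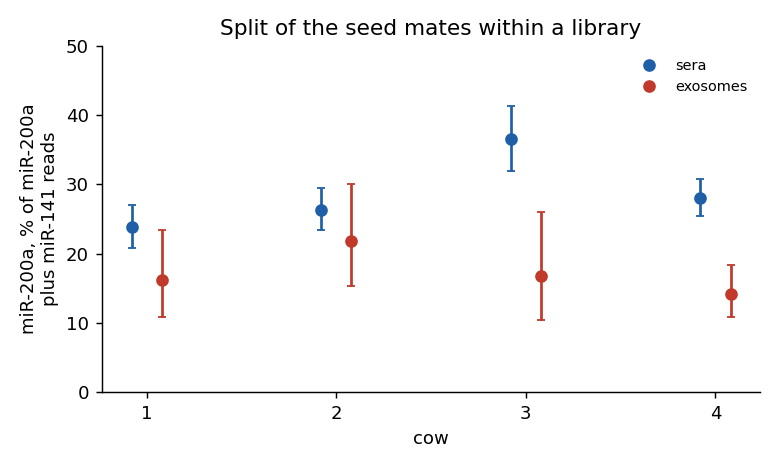
Share of miR-200a in the reads of miR-200a plus miR-141 for each cow, in sera (blue) and exosomes (red), with 95% Wilson intervals as bars. The 4 sera shares lie between 23.8% and 36.6% and the 4 exosome shares between 14.2% and 21.8%, and the intervals of cows 1 and 2 overlap between the sample types.

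The second comparison asks how the members vary among healthy animals. MiR-141 differed between cows, and it did so in the same order in both sample types: cow 1 was highest, followed by cows 4, 2 and 3. Cows 1 and 4 had on average 1.95 times the level of cows 2 and 3 in sera and 2.46 times in exosomes, a grouping that was made after the values were seen. The same 2 cows were highest for miR-200a (1.46 times in sera and 1.83 times in exosomes) and for miR-429 (2.10 and 1.56 times). These were 3 of the 5 members, and 7.12% of all miRNAs tested had cows 1 and 4 highest in both sample types (12.5% of those well covered). MiR-200b had cows 1 and 4 highest in sera and cows 4 and 3 in exosomes, and miR-200c had cows 3 and 4 highest in both, each at few reads. Whichever the cows, the same 2 were thus highest in both sample types for 4 of the 5 members, for 32.1% of all miRNAs tested and for 56.2% of those well covered.

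The cow was tested as a term in limma beside the sample type. In the main fit the residual spread came wholly from the trend over all miRNAs, not from each miRNA's own residuals. That spread was treated as known, so very small FDR values overstate what these few libraries can show. Serum and exosomes of a cow came from 1 blood sample, so cow and blood sample cannot be told apart. MiR-141 had a cow FDR of 1.25e-12 (limma F = 22.3), with 2.32-fold between the highest and the lowest cow, and ranked 6 of the 365 miRNAs by p. MiR-200a had a cow FDR of 0.0218 by limma, with 1.75-fold between the highest and the lowest cow, and kept it under 0.05 in 2 of 8 fits that left out 1 library (FDR from 0.00473 to 0.221). MiR-429 had a cow FDR of 0.267 by limma and 0.00345 by edgeR on the reads, so its call depended on the test. MiR-200b and miR-200c had a limma FDR of 0.890 and 0.335. Of all miRNAs tested, 25.5% were past an FDR of 0.05 for the cow by limma and 24.7% by edgeR, and of the 128 well covered miRNAs 69.5% were by limma, so a call for the cow was common at the depth of miR-141 and miR-200a.

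Cow 1 stood apart in another measure. Its muscle miRNAs (miR-133a, miR-208b, miR-499, miR-133b and miR-1, with miR-206 at 0) summed to 23097 RPM in serum and 26301 RPM in exosomes, and those of the other cows to at most 342 RPM. The sum was mostly miR-133a, with a mean of 6035 RPM over the 8 libraries. MiR-208b had a mean of 170 RPM, miR-499 of 108 RPM and miR-133b of 40.1 RPM. MiR-1 was too low to pass the filter for testing. Without both libraries of cow 1, miR-141 kept a cow FDR of 2.95e-09 by limma, and that of miR-200a was 0.0528. The log2 FC of miR-200a between sample types was then 1.33 (limma FDR = 0.0549). The muscle sum was also highest in cows 1 and 4 in both sample types, but that of cow 4 was far below that of cow 1. In sera it was 244 RPM in cow 4, against 203 and 215 RPM in cows 2 and 3. In exosomes it was 342 RPM in cow 4, against 164 and 264 RPM in cows 2 and 3. The part of the muscle sum in the result was tested only by leaving out cow 1. The sums of red cell, leukocyte, liver and platelet and endothelial miRNAs did not have cows 1 and 4 highest in both sample types.

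**Figure D5:**
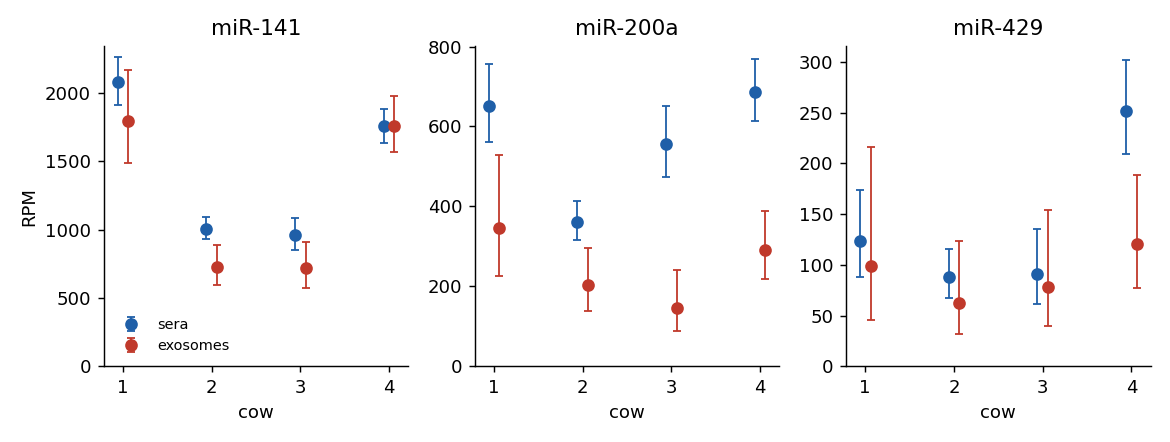
RPM of miR-141, miR-200a and miR-429 by cow in sera (blue) and exosomes (red), with 95% Wilson intervals as bars and axes from 0. Cows 1 and 4 lie above cows 2 and 3 in both sample types for each of the 3 members.

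The miRNAs most like the 2 well covered members over the 8 libraries were named by Pearson r of log2(RPM + 1), among the well covered miRNAs. The points share libraries, cows and denominators, so r is given as a description. For miR-141 these were miR-205 (r = 0.85), miR-125a (0.84) and miR-10a (0.82), and the median r of all miRNAs with miR-141 was 0.15. MiR-205 is, like the miR-200 family, an epithelial miRNA known to act on ZEB1 and ZEB2. Its serum levels were 981, 664, 801 and 1469 RPM (cows 1 to 4) and its exosome levels 774.5, 288.5, 410.0 and 1135 RPM, also with cows 1 and 4 highest in both. For miR-200a the most alike were miR-130a (r = 0.93), miR-125b (0.92) and miR-27a-3p (0.90), with a median of 0.46. The seed mates had an r of 0.67 with each other, at which miR-200a ranked 14 of 127 for miR-141 and miR-141 ranked 40 of 127 for miR-200a.

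With the mean of each sample type removed, what is left is the spread among libraries of a type. MiR-141 was then most like miR-125b (r = 0.90), miR-125a (0.87) and miR-205 (0.87), and miR-200a ranked 5 of 127 (r = 0.86). MiR-200a was most like miR-130a (r = 0.92), miR-10a (0.86) and its seed mate miR-141 (0.86), followed by miR-10b (0.82). MiR-429, at 6 to 112 reads per library, had an r of 0.72 with miR-141 and 0.63 with miR-200a. At still fewer reads, miR-200b had an r of 0.72 with miR-141 and 0.36 with miR-200a, and miR-200c had an r of -0.073 and -0.29.

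Other miRNAs known from epithelia were taken from a list of 11 names, of which 9 were matched and 8 had reads. MiR-96 had no reads in any library. None of the 8 was past the thresholds between sera and exosomes, and their median log2 FC was 0.51, against 0.52 for the 5 members and 0.57 for all miRNAs tested. Before adjustment, at p under 0.05 and the same FC, limma passed 53 of all 365 miRNAs and edgeR 28. The 8 were not among them. Only miR-183, named after its values were seen, was past the FC, at a limma FDR of 0.256 and an edgeR p of 0.183. The most abundant of the 8 were miR-192 and miR-215, which are known from gut and liver, and miR-375, known from endocrine and gut epithelium. Mean levels in sera and exosomes were 48189 ± 11956 and 37236 ± 14706 RPM for miR-192 and 13059 ± 5142 and 11126 ± 6760 RPM for miR-215 (SD, n = 4). For miR-375 they were 2551 ± 270 and 2408 ± 352 RPM (SD, n = 4). The cow term was past an FDR of 0.05 by limma for 4 of the 8, miR-192, miR-205, miR-215 and miR-194 (the last at an FDR of 0.0499 and named after its values were seen), against 25.5% of all miRNAs tested and 69.5% of those well covered. MiR-205 alone of these 8 had cows 1 and 4 highest in both sample types. For miR-215 the order was another, with 19500 and 14865 RPM in the sera of cows 1 and 2 and 8407 and 9463 RPM in those of cows 3 and 4.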

How the data were processed

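Low-quality reads were discarded with CASAVA 1.8 and adaptors were cut. Using sRNAbench, the authors then matched the reads of every library to bovine miRBase entries, and deposited 1 RPM table per library (reads of a miRNA scaled to a fixed total of miRNA reads). Reads were recovered from the smallest step of each library, and 100% of values were whole within 0.05 RPM. The edgeR test with TMM called 14 of 365 miRNAs, limma 16.

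Sample type and cow were read from the titles. Same-numbered sera and exosomes came from the same cow, and their deviations from the mean of the sample type correlated with r of 0.740 to 0.860 over 128 miRNAs. Replicate libraries differed by more than counting noise (chi-square per degree of freedom at least 29.1).

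Sera and exosomes were compared with limma (lmFit, eBayes with trend) on log2(RPM + 1), in place of the study's edgeR, because RPM are not counts. Fold changes are on this scale, where those of miRNAs with few reads depend on the pseudocount. Both tools were first tested on simulated data. The members and lists were chosen with earlier results of these data known. Named beside the members were the 3 miRNAs most like each well covered member and, of the epithelial list, the called, the 3 most abundant and those without reads. Mature sequences were not used here. Alternatives were pseudocounts of 0.1 and 10, filters, other tests and scalings, equal depth (20 draws), the cow as a replicate block and each library left out. The tools were Python 3.11.15, SciPy 1.17.1, DESeq2 1.42.0, edgeR 4.0.16, limma 3.58.1 and R 4.3.3.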

Additional observations from a re-analysis of the deposited data

How the results depend on the processing

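Of the 5 members, 1 was past the thresholds between sera and exosomes (miR-200a) and 2 were past the FDR for the cow (miR-141 and miR-200a). The first number was 0 with miR-486 left out of the denominator, at equal depth, with DESeq2 and without both libraries of cow 1 (the last chosen after seeing the data), and 0 to 1 leaving out 1 library. The log2 FC of miR-200a in these was 1.02, 1.14, 0.88 and 1.33, and 0.997 to 1.42 leaving out 1 library. With DESeq2 its FDR was 0.0380, and only the fold change missed its threshold. The number for the cow was 1 with pseudocounts of 0.1 and 10, without miR-486, at equal depth and without cow 1, where the cow FDR of miR-200a was 0.0551, 0.0585, 0.0897, 0.290 and 0.0528. With edgeR it was 3, as miR-429 was added at an FDR of 0.00345 (TMM) and 0.00376 (library totals). Leaving out 1 library, the number was 1 to 2 and this FDR 0.00473 to 0.221. The cow FDR of miR-141 was at most 4.73e-05 in 17 alternatives. MiR-141 reversed its sign between sample types with DESeq2 (log2 FC of -0.058). Mean levels from pooled reads, sums without miR-486 and the ratio of miR-141 to miR-200a at equal depth moved by less than 1 SD. Leaving out 1 library cannot move such a mean by 1 SD, so those alternatives do not bear on levels, sums and ratios. The causes were not tested.

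Under the replicate block by cow, the limma FDR of miR-200a was 4.46e-08 and that of miR-141 was 0.135. The block fit took its residual spread from the same trend over all miRNAs, so 4.46e-08 overstates what these few libraries can show. No call of a member changed with the block. Over all miRNAs the calls rose from 11 to 29 in sera and were 5 and 6 in exosomes. With edgeR they were 6 in sera and 8 in exosomes, and 13 and 13 with the block. DESeq2 called 3 and 13, and limma without miR-486 called 6 and 6. Depth limits miR-200b and miR-200c most, with at most 4 reads per exosome library.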
